A study of Mus musculus with 16 samples.

Results

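AMPA and kainate receptors are the ionotropic glutamate receptors that carry most of the fast excitatory current at brain synapses. AMPA receptors are tetramers of the subunits encoded by Gria1 to Gria4. Kainate receptors are tetramers of those encoded by Grik1 to Grik5, in which Grik1, Grik2 and Grik3 encode low-affinity subunits that form channels on their own and Grik4 and Grik5 encode high-affinity subunits that need one of them. Neto1 encodes a transmembrane auxiliary protein that binds kainate receptors and slows their gating. In the hippocampus the AMPA receptor pool is set largely by the proteins of Gria1 and Gria2, and kainate receptors are best known at mossy fibre synapses and in interneurons. The 10 genes were taken by symbol from the deposited expected counts of hippocampal RNA, where all 10 were found among the 31960 genes with a count, and all 10 passed a filter on low counts. The list follows receptor family and uses no threshold on a measured value.

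The libraries came from High Activity and Low Activity mice, 2 inbred strains that descend from a cross of BALB/cJ with C57BL/6 and were bred in opposite directions for locomotion in an open field. Each strain was sampled in both sexes with 4 mice per group, named High females, High males, Low females and Low males below. All mice were untreated and taken at postnatal day 70, and the hippocampi of each mouse gave 1 library. Each strain is a single inbred line, so a strain difference here is a difference between these 2 lines. Libraries are numbered 1 to 4 (High females), 5 to 8 (High males), 9 to 12 (Low females) and 13 to 16 (Low males).

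Total expected counts per library ran from 20815456 to 28760896. The summed level of 6 dentate granule cell markers was 334 to 458 CPM (expected counts scaled to library size with TMM factors) across the 16 libraries, that of 5 CA1 markers 508 to 647 and that of 6 CA3 markers 258 to 376. Some libraries carried markers of neighbouring tissue. The summed level of 8 thalamus and habenula markers was 342 CPM in High male 6 and 222 in male 8, against 112 in male 5 and 74 in male 7, and 209 and 169 CPM in Low males 14 and 16 against 73.5 and 77.1 in males 13 and 15. It was 80.8 to 143 CPM in High females and 69.0 to 74.7 in Low females. Of these markers Gpr151 was at 12.3 and 10.9 CPM in High males 6 and 8 and at 2.5 CPM or less in every other library. Pou4f1 was at 6.71 and 6.79 CPM in the same 2 males, at 1.37 CPM or less elsewhere and at 0 in Low males 13 and 16. Other markers were high in males of both strains. Tcf7l2 was at 80.3 and 36.8 CPM in High males 6 and 8 and at 26.1 and 21.5 in Low males 14 and 16. Ramp3 was at 37.5 and 21.4 CPM in those High males and at 20.1 and 21.8 in those Low males. Prkcd is in both the CA3 and the thalamus list, at 30.5 to 69.5 CPM in females, 33.2 to 142 in High males and 37.2 to 122 in Low males, so those sums are not independent. The summed level of 6 choroid plexus markers was 994 to 4467 CPM in High females, 2289 to 5282 in High males, 130 to 1679 in Low females and 724 to 3545 in Low males. Xist, the RNA of the inactive X chromosome, was at 7.91, 5.96 and 11 CPM in males 5, 6 and 13 and below 1 CPM in the other males, against 621 to 805 CPM in females. Strain differences are therefore also given below without males 6 and 8. That fit leaves out High males only and keeps Low males 14 and 16, so it is not balanced between the strains.

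The coding sequence around the Q/R site, the position in the pore where the RNA of Gria2, Grik1 and Grik2 is edited so that a glutamine codon is read as arginine, is shown because it is among the most conserved stretches of the family and holds the base that editing changes. The 51-base windows below were read from GENCODE M21 transcripts, 5′ to 3′, with the glutamine codon in capitals.
Gria1: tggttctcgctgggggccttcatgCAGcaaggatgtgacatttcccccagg
Gria2: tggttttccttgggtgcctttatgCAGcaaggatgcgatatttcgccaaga
Gria3: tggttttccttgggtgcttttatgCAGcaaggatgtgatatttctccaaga
Gria4: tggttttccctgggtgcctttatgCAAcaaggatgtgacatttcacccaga
Grik1: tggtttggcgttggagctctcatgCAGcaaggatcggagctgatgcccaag
Grik2: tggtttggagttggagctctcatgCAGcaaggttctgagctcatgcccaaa
Grik3: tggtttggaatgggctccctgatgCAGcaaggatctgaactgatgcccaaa
Grik4: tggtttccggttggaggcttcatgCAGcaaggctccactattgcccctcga
Grik5: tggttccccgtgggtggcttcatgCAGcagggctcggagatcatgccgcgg

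In these windows Gria2 and Gria3 were identical at 48 of 51 bases, Grik1 and Grik2 at 46, Gria1 and Gria2 at 41, and Gria2 and Grik2 at 32. Over whole transcripts the share of 50-base words of a member that also occurred on the same strand in any other annotated gene was 0% for Gria1 and Neto1 and at most 0.727%, in Gria2. Neto1 shared 2.04% of its words with AC113599.1, an annotated gene on the opposite strand. Whether strand was used in counting is not given in the sources used here. The counts are per gene, so neither editing at this codon nor the flip and flop splice forms could be read from them.

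Gria1 stood well above all other members. Per kb of merged exons its level averaged 131 CPM ± 16.2 (SD over 16 libraries), and its lowest library (108) was above the highest library of any other member. Gria2 followed at 43.0 CPM per kb ± 4.13 and Grik5 at 42.6 ± 2.44, and the order of these 2 was not fixed, with Gria2 the higher in 9 of 16 libraries. Neto1, at 16.5 ± 2.05, and Gria3, at 16.3 ± 1.25, could not be separated either (Neto1 higher in 7 of 16 libraries). Grik4 averaged 8.11 ± 0.901, Gria4 7.44 ± 1.12, Grik3 5.94 ± 0.506, Grik2 4.12 ± 0.498 and Grik1 1.53 ± 0.197 CPM per kb. The ranges of Grik4 and Gria4, of Gria4 and Grik3, and of Grik3 and Grik2 overlapped over libraries, although Gria4 was above Grik3 and Grik3 above Grik2 within every library. Grik1 was below every other member in every library. With the longest transcript as the length, Gria3 moved above Neto1 and Gria4 above Grik4. Gria2 then averaged 64.4 CPM per kb and Grik5 54.3, so their near tie depended on the length used. Without division by length Gria1 was at 793 CPM and Gria2 at 668 CPM, ranks 101 and 127 among protein-coding genes, and Grik1 at 10.3 CPM held rank 9925. The counts behind the values ran from 193 in 1 library for Grik1 to 28051 for Gria1.

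**Figure D1:**
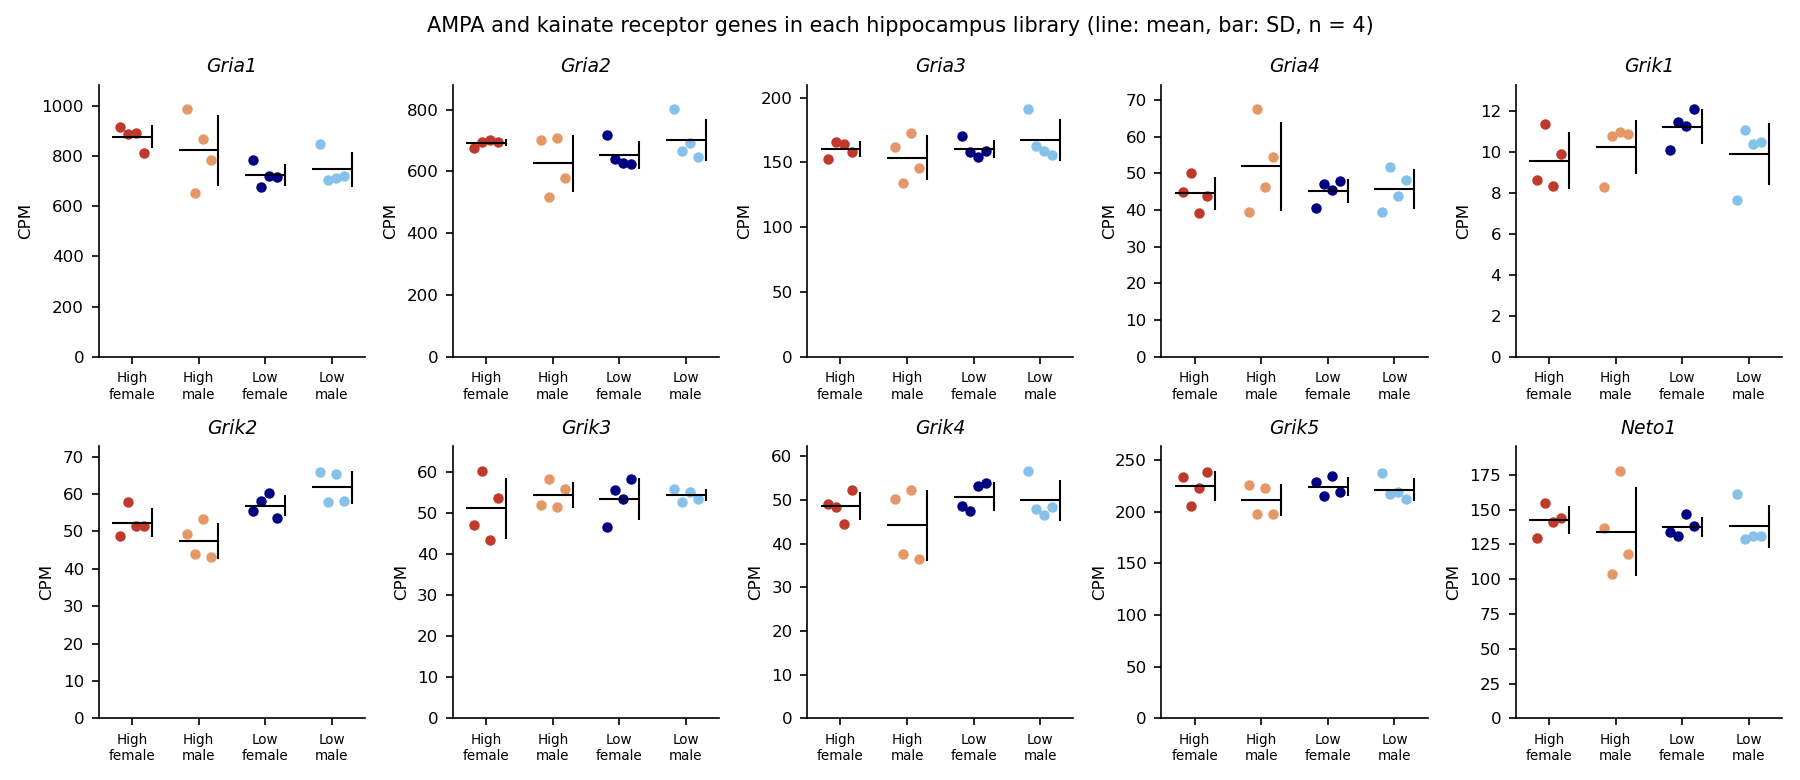
Level of each of the 10 genes in the 16 hippocampus libraries, in CPM scaled with TMM factors (y axis, from 0), by strain and sex (x axis). Points are single mice, the horizontal line is the mean of 4 and the vertical bar is 1 SD. Gria1 sits higher in High females than in Low females with no overlap, and Grik2 lower in High males than in Low males with no overlap.

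For the strain comparison, 2 of the 10 genes, Gria1 and Grik2, showed any strain effect at an adjusted p under 0.05 in the quasi-likelihood test of edgeR, after Benjamini-Hochberg adjustment over all 31960 genes. The same test called 15.2% of all protein-coding genes and 19.8% of those at a mean of 1 CPM or more, so the count among the members was close to the background. Within females 1 member was called (Gria1, upregulated in High Activity mice) against 14% of protein-coding genes at 1 CPM or more, and within males 1 member (Grik2, downregulated in High Activity mice) against 11.3%. For the mean of both sexes these 2 were called again, against 21.1%. The median log2 difference between strains over the 10 members was -0.01 in females and -0.05 in males, beside -0.01 in both sexes over all protein-coding genes at 1 CPM or more. No member passed the adjusted test of the strain by sex interaction, which called 0% of these genes in edgeR although 2341 of 13751 were under 0.05 before adjustment. DESeq2 called 149 and limma-voom 0 of them, and no member in either. Grik2 and Gria2 were the members under 0.05 before adjustment.

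Gria1 encodes GluA1, the AMPA subunit that is inserted into synapses during long-term potentiation. It lies on chromosome 11 of GRCm38 from 57011387 to 57330244 on the plus strand. It was at 917, 887, 892 and 811 CPM in High females and at 783, 678, 720 and 715 CPM in Low females. Every High female was above every Low female, a separation shown in either direction by 25.5% of protein-coding genes at 1 CPM or more. In males it was at 987, 652, 868 and 786 CPM in High Activity mice and at 850, 706, 712 and 720 CPM in Low Activity mice, and the groups overlapped, since male 6 was the lowest of the 16 libraries and male 13 stood above the other Low males. The fitted difference was 1.21-fold in females (log2 0.28 ± 0.08 SE, adjusted p = 0.0459 in edgeR's quasi-likelihood test). In males it did not pass (log2 0.14 ± 0.08, adjusted p = 0.439). For the mean of the sexes it was log2 0.21 ± 0.06 (adjusted p = 0.0215), and the difference between the sexes was not established (interaction log2 0.14 ± 0.12, unadjusted p = 0.269, adjusted p = 0.799).

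The Gria1 call in females lay close to the threshold. It was not reached with upper-quartile factors (adjusted p = 0.055), filterByExpr (0.0506), limma-voom (0.0717) or an offset for transcript length and GC content (log2 0.21, adjusted p = 0.136). It was also lost when any of libraries 1, 2, 3, 10, 11 or 12 was left out, with adjusted p of 0.102, 0.0802, 0.094, 0.144, 0.0992 and 0.1 in that order, while the log2 difference of Gria1 stayed between 0.25 and 0.32 over all 16 such fits. The any strain effect was likewise lost without 1 of 9 libraries, with adjusted p from 0.0551 without male 16 to 0.125 without female 10, and the mean over the sexes without male 5 (adjusted p = 0.0501) or female 10 (adjusted p = 0.0511). Without High males 6 and 8, Gria1 was upregulated in High Activity mice in females (log2 0.28 ± 0.06, adjusted p = 0.0015) and in males (log2 0.31 ± 0.07, adjusted p = 0.00525). Without the 4 males with the highest thalamus markers, 2 of each strain, the male difference was 0.25 ± 0.08 (adjusted p = 0.049), and without the 3 males with Xist it was 0.22 ± 0.07 (adjusted p = 0.0655). These 2 fits, like the others without those males below, were chosen after seeing the data. Males 6 and 8 were themselves picked by their thalamus markers in these same data. They had the lowest Gria1 of the High males, at 652 and 786 CPM.

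Grik2 encodes GluK2, the principal low-affinity kainate subunit of hippocampal mossy fibre synapses. It lies on chromosome 10 of GRCm38 from 49094833 to 49788766 on the minus strand. In males it was at 49.2, 43.9, 53.3 and 43.3 CPM in High Activity mice and at 65.9, 57.9, 65.5 and 58.1 CPM in Low Activity mice. Every High male was below every Low male, a separation shown in either direction by 16.6% of protein-coding genes at 1 CPM or more. In females it was at 48.7, 57.9, 51.5 and 51.4 CPM in High Activity mice and at 55.6, 58.1, 60.2 and 53.7 CPM in Low Activity mice, and the groups overlapped through female 2. The fitted fold was 0.768 in males (log2 -0.38 ± 0.07, adjusted p = 0.000498 in edgeR's quasi-likelihood test) and 0.921 in females (log2 -0.12 ± 0.07, adjusted p = 0.385). The mean over the sexes was log2 -0.25 ± 0.05 (adjusted p = 0.00065). The interaction was log2 0.26 ± 0.10 with an unadjusted p of 0.0123 and an adjusted p of 0.346, so a larger difference in males was not established across all genes.

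The male difference of Grik2 was called under all 29 other settings, at log2 -0.44 to -0.27. High males 6 and 8, the 2 with the highest thalamus markers, also had the lowest Grik2 of all 16 libraries. Whether tissue from thalamus had a part in these values was not tested beyond leaving libraries out. Without the 2 males the difference was -0.27 ± 0.07 (adjusted p = 0.0264), without the 4 males with the highest thalamus markers -0.36 ± 0.08 (adjusted p = 0.00221) and without the 3 males with Xist -0.32 ± 0.09 (adjusted p = 0.0223). With an offset for transcript length and GC content the female difference became -0.33 ± 0.05 (adjusted p = 4.18e-05) and the interaction 0.04 ± 0.07 (unadjusted p = 0.565). The Grik2 call in females thus depended on that offset. In bulk RNA a lower level can stand for fewer cells of a type or for less RNA per cell, and these cannot be told apart.

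**Figure D2:**
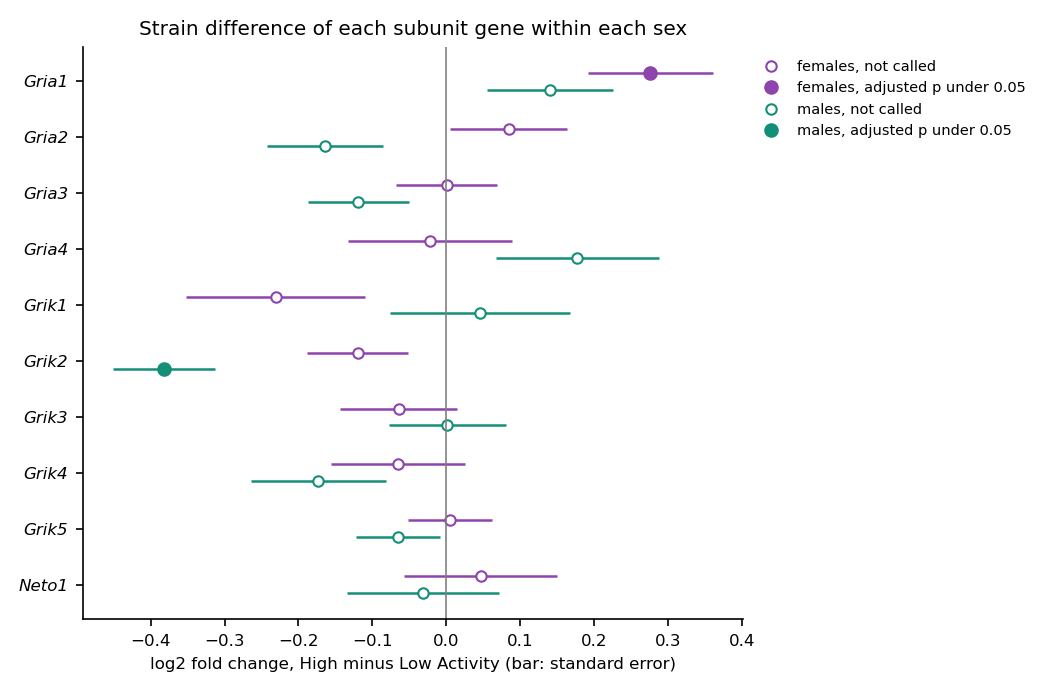
Fitted log2 fold change, High minus Low Activity (x axis), for each of the 10 genes (y axis) in females and in males, with bars of 1 standard error and filled points where the Benjamini-Hochberg adjusted p was under 0.05 in edgeR. Only Gria1 in females (0.28) and Grik2 in males (-0.38) are filled.

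**Figure D3:**
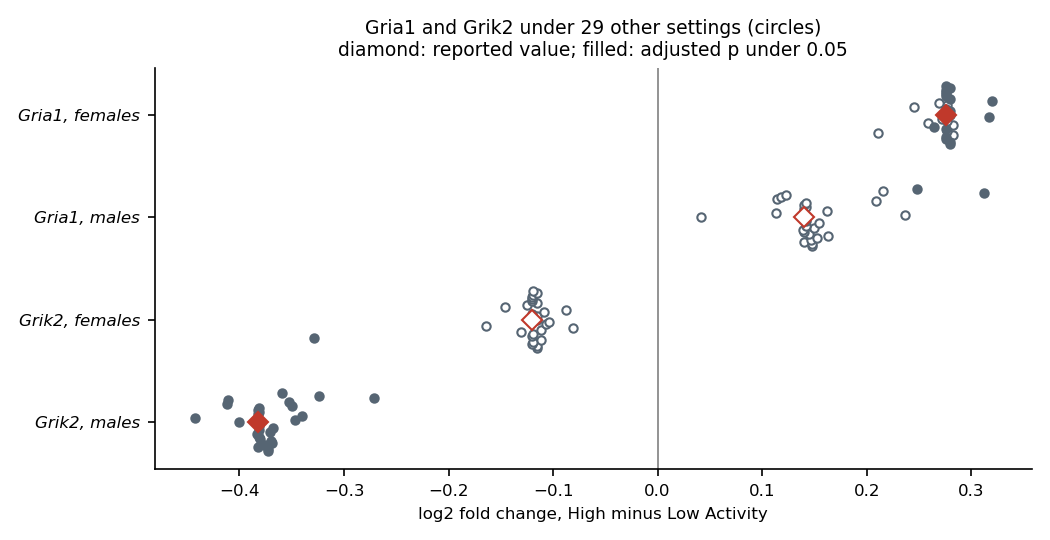
Log2 fold change, High minus Low Activity (x axis), of Gria1 and Grik2 in each sex (rows) under the 29 other settings tried (circles) and as reported (diamond), filled where the adjusted p was under 0.05. All circles of Grik2 in males and 1 of Grik2 in females are filled, those in males between -0.44 and -0.27, while 19 of the 29 for Gria1 in females and 2 of the 29 for Gria1 in males are filled.

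Gria2 encodes GluA2, the subunit whose edited form makes AMPA receptors nearly impermeable to calcium, and is annotated on chromosome 3 (GRCm38, 80681450 to 80802835). It was at 676, 694, 702 and 696 CPM in High females, 719, 639, 628 and 625 in Low females, 701, 518, 707 and 577 in High males and 801, 665, 693 and 646 in Low males. Strain groups overlapped in both sexes, with males 6 and 8 the lowest of all libraries. The log2 difference was 0.08 ± 0.08 in females (adjusted p = 0.584) and -0.16 ± 0.08 in males (unadjusted p = 0.0483, adjusted p = 0.296) in edgeR. Without males 6 and 8 the male difference was 0.01 ± 0.07. With the offset for length and GC content the female difference turned to -0.16 ± 0.06 (adjusted p = 0.16), and the mean over the sexes, -0.16 ± 0.05, was called (adjusted p = 0.0169).

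The ratio of Gria1 to Gria2 counts within a library needs no scaling for library size. It was 1.36, 1.28, 1.27 and 1.17 in High females and 1.41, 1.26, 1.23 and 1.36 in High males, against 1.09, 1.06, 1.15 and 1.14 in Low females and 1.06, 1.06, 1.03 and 1.11 in Low males. The means were 1.27 ± 0.0784, 1.31 ± 0.0848, 1.11 ± 0.0416 and 1.07 ± 0.0358 (SD, n = 4 each). All 8 High Activity libraries, males 6 and 8 included, were above all 8 Low Activity libraries, by 1.17 against 1.15 at the nearest. This ratio was chosen after its values were seen, and no test is given for it. It is not corrected for length or GC content, and with that offset the fitted log2 differences of Gria1 and Gria2 were 0.21 and -0.16 in females, in place of 0.28 and 0.08, and 0.16 and -0.16 in males, in place of 0.14 and -0.16. A ratio to Gria2 that separated all libraries by strain, in either direction, was found for 3.11% of protein-coding genes at 1 CPM or more, and a CPM that did so for 5.80%. No member was apart by CPM in all 16 libraries. The ratio of Gria1 to Grik2 was apart too, at 14.8 to 20.1 in High Activity and 10.9 to 14.1 in Low Activity libraries. It joins the 2 called members, 1 called higher and 1 called lower, so it is not independent of those calls. The share of all genes that would separate in a ratio to Grik2 was not counted. The ratios of Gria3 and of Gria4 to Gria2 overlapped in both sexes.

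As a share of AMPA subunit RNA per kb of exon, Gria1 held 68.1% ± 1.33 in High females and 67.8% ± 2.29 in High males against 64.7% ± 0.812 and 64.0% ± 0.684 in Low females and males (SD, n = 4 each). Gria2 held 20.9% ± 0.918 and 20.1% ± 0.831 against 22.7% ± 0.636 and 23.4% ± 0.630. Gria3 held 7.64% ± 0.368 and 7.84% ± 0.515 against 8.78% ± 0.213 and 8.79% ± 0.178. Within each sex the shares of Gria1 and Gria3 were apart between strains in every library, and those of Gria2 were apart in males only. How many other genes would separate as such a share was not counted. The CPM of Gria3 overlapped between strains in both sexes, as did its ratio to Gria2, so its share alone does not show a strain difference of Gria3. The shares add up to 100% in each library, so they do not move independently. The size of a share depended on the length used, since Gria1 held 66.2% over all libraries with merged exons, 57.8% with the longest transcript and 47.4% without division by length. The 4 AMPA subunits together were at 213 ± 7.30 CPM per kb in High females, 200 ± 28.5 in High males, 185 ± 9.92 in Low females and 193 ± 16.5 in Low males.

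**Figure D4:**
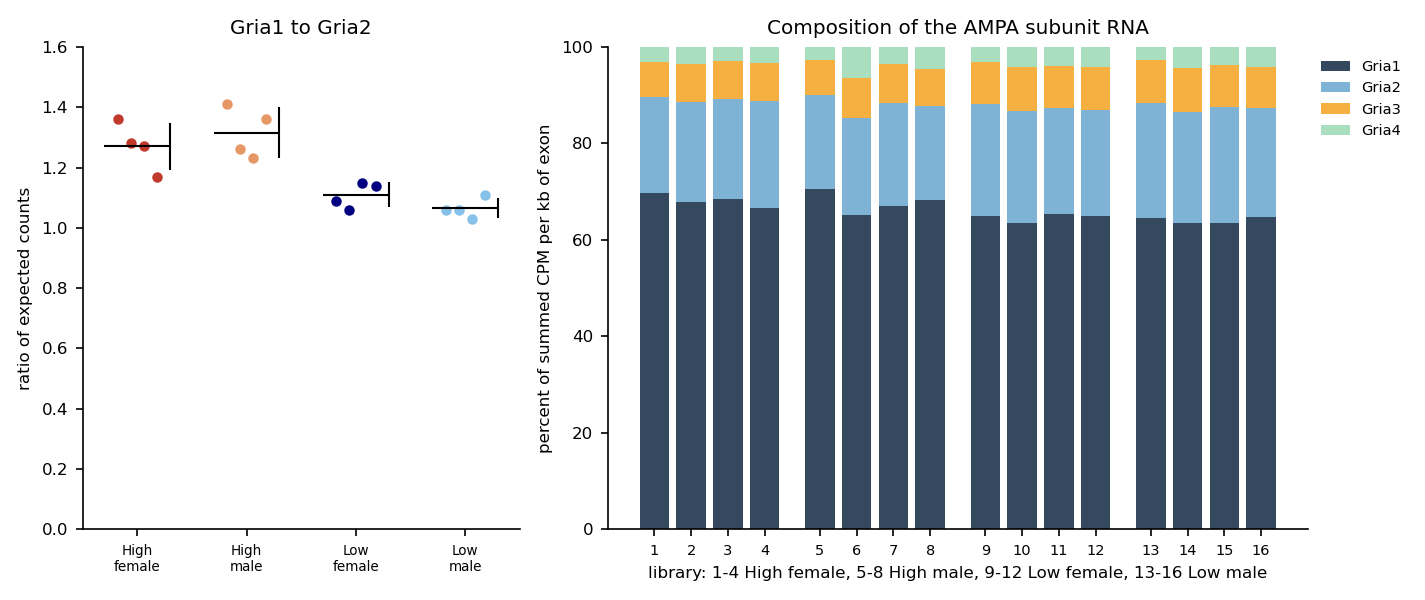
Left, ratio of Gria1 to Gria2 expected counts (y axis, from 0) by strain and sex, with single mice as points, the mean of 4 as a line and 1 SD as a bar. Right, percent of the summed CPM per kb of exon of Gria1 to Gria4 held by each subunit in libraries 1 to 16. The 8 High Activity ratios (1.17 to 1.41) lie above the 8 Low Activity ratios (1.03 to 1.15).

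Gria3 and Gria4 encode the remaining AMPA subunits, and Gria4 is known for its expression in interneurons and thalamus. Gria3, on the X chromosome of GRCm38 from 41400854 to 41678601, was at 153 to 166 CPM in High females, 134 to 173 in High males, 154 to 170 in Low females and 156 to 191 in Low males. The log2 difference was 0.00 ± 0.07 in females (adjusted p = 1) and -0.12 ± 0.07 in males (adjusted p = 0.408). Gria4, on chromosome 9 from 4417896 to 4796234, was at 45.0, 50.1, 39.3 and 43.9 CPM in High females and 39.4, 67.5, 46.4 and 54.4 in High males, against 40.6 to 48.0 in Low females and 39.4 to 51.8 in Low males. Its highest libraries were males 6 and 8, which also held the highest thalamus markers, and Low males 14 and 16 were above males 13 and 15. The male difference was 0.18 ± 0.11 (adjusted p = 0.461) with all males and -0.10 ± 0.09 (adjusted p = 0.728) without males 6 and 8. The second fit kept Low males 14 and 16, so it lowered the Gria4 level of the High males only.

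Among the other kainate subunits no strain difference was called. Grik5, the most abundant, was at 205 to 238 CPM in High females, 198 to 226 in High males, 215 to 234 in Low females and 212 to 237 in Low males. Its difference was 0.00 ± 0.06 in females and -0.07 ± 0.06 in males. Grik4 was at 44.4 to 52.3 CPM in High females and 47.4 to 53.9 in Low females. In High males it was at 50.3 and 52.2 CPM in mice 5 and 7 but at 37.7 and 36.5 in mice 6 and 8, against 46.5 to 56.7 in Low males. Its male difference was -0.17 ± 0.09 (adjusted p = 0.356) with all males and 0.04 ± 0.08 (adjusted p = 0.918) without males 6 and 8. Grik3 was at 43.4 to 60.3 CPM over all libraries, with differences of -0.06 ± 0.08 in females and 0.00 ± 0.08 in males.

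Grik1, a kainate subunit of interneurons, was the lowest member. It was at 8.63, 11.4, 8.37 and 9.92 CPM in High females and at 10.1, 11.5, 11.3 and 12.1 CPM in Low females, with overlap. The female difference was -0.23 ± 0.12 (unadjusted p = 0.067, adjusted p = 0.323) and the male difference 0.05 ± 0.12 (adjusted p = 0.929). The summed level of 9 interneuron markers was 894 to 1014 CPM in High females and 1077 to 1145 in Low females. Of the 9 markers 1 was called higher and 2 called lower in females. Cck, the marker with the highest level, had medians of 270 CPM in High females and 351 in Low females. Npy alone had the higher median in High females, at 48 against 36.9 CPM. In males the summed level was 902 to 970 against 933 to 1027 CPM. The part of interneuron number in the Grik1 values was not tested.

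As a share of kainate subunit RNA per kb, Grik5 held 68.4%, Grik4 13%, Grik3 9.57%, Grik2 6.61% and Grik1 2.46% over the 16 libraries. Grik2 held 6.01% ± 0.228 in High males against 7.36% ± 0.361 in Low males, without overlap, and 6.32% ± 0.656 against 6.73% ± 0.309 in females, with overlap. The count ratio of Grik2 to Grik5 was 0.218 to 0.239 in High males and 0.267 to 0.299 in Low males. In females it overlapped, at 0.209 to 0.282 in High Activity and 0.243 to 0.27 in Low Activity mice. Share and ratio both contain the Grik2 level, so neither is independent of its call in males. How many other genes would separate in such a share or ratio was not counted. The 5 kainate subunits together were at 59.5 to 63.8 CPM per kb in the group means.

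Neto1 was at 130 to 155 CPM in High females, 131 to 147 in Low females and 129 to 161 in Low males. High males were spread more widely, at 137, 104, 178 and 118 CPM, with males 6 and 8 again the lowest. The difference was 0.05 ± 0.10 in females (adjusted p = 0.886) and -0.03 ± 0.10 in males (adjusted p = 0.957), and without males 6 and 8 the male value was 0.20 ± 0.08 (unadjusted p = 0.0258, adjusted p = 0.257).

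Between the sexes no member was called in either strain. Male minus female differences ran from -0.15 (Gria2) to 0.22 (Gria4) in High Activity mice, where 0.0654% of protein-coding genes at 1 CPM or more were called, and from -0.18 (Grik1) to 0.12 (Grik2) in Low Activity mice, where 0.516% were called. The smallest unadjusted p was 0.0505, for Grik2 in High Activity mice.

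Genes that act on these receptors, and related receptor genes, were taken from 7 lists, of which 67 genes were found in the counts. Any strain effect was called for 14 of the 67 (20.9%), close to the 19.8% of all protein-coding genes at 1 CPM or more. Of the 14, 8 were higher in High Activity mice in both sexes, 5 were lower in both, and Shisa6 had opposite signs. Among 15 AMPA auxiliary subunits, 3 were called. Cacng7, the TARP gamma-7, was upregulated in High Activity mice in females (138 ± 7.71 against 111 ± 2.80 CPM, log2 0.32 ± 0.07, adjusted p = 0.00321) and in males (143 ± 14.3 against 107 ± 11.7 CPM, log2 0.42 ± 0.07, adjusted p = 0.000145). Syndig1, a transmembrane protein of developing synapses, was lower, at log2 -0.24 ± 0.08 in females (adjusted p = 0.0539) and -0.32 ± 0.08 in males (adjusted p = 0.00934). The male call of Syndig1 was lost without the 3 males with Xist (adjusted p = 0.162) and without the 4 with the highest thalamus markers (adjusted p = 0.0586). Shisa6, which keeps AMPA receptors from desensitising, differed by 0.40 ± 0.11 in females (adjusted p = 0.0243) and -0.04 ± 0.11 in males, and its any strain effect (adjusted p = 0.0489) was lost under most alternatives. Cacng8 and Cnih2, the main auxiliary subunits of hippocampal pyramidal cells, were not called, at 0.14 ± 0.08 and -0.12 ± 0.08 in females and 0.01 ± 0.08 and -0.12 ± 0.08 in males.

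Among 7 genes of AMPA receptor assembly 2 were called, in opposite directions. Frrs1l, an endoplasmic reticulum protein needed to build AMPA receptors, was at 440 ± 9.59 CPM in High Activity and 280 ± 20.4 CPM in Low females, and at 424 ± 40.3 and 302 ± 28.2 CPM in males (SD, n = 4 each). The fold was 1.57 in females (log2 0.65 ± 0.07, adjusted p = 1e-07) and 1.41 in males (log2 0.49 ± 0.07, adjusted p = 1.05e-05) in edgeR's quasi-likelihood test. Rab39b, a small GTPase that carries Gria2 protein out of the endoplasmic reticulum, was lower, at -0.28 ± 0.06 in females (adjusted p = 0.0016) and -0.32 ± 0.06 in males (adjusted p = 0.000429). Its male call was lost without the 4 males with the highest thalamus markers (adjusted p = 0.0841). The other 5 assembly genes, Cpt1c, Porcn, Sacm1l, Abhd6 and Abhd12, were not called for any strain effect. For the mean of the sexes 4 of the 7 assembly genes were called, 2 higher and 2 lower, against 21.1% of protein-coding genes at 1 CPM or more.

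Of 26 genes of AMPA trafficking and anchoring 3 were called. Nptx2, a secreted pentraxin that clusters AMPA receptors on interneurons, was at 23.2 ± 2.50 against 33.1 ± 2.34 CPM in females (log2 -0.51 ± 0.15, adjusted p = 0.0276) and 22.4 ± 5.34 against 31.1 ± 7.94 CPM in males (log2 -0.48 ± 0.15, adjusted p = 0.0497). The female call was lost without library 2, 9, 10 or 11 (adjusted p of 0.108, 0.0598, 0.0736 and 0.0701) and the male call under most alternatives, while the any strain effect of Nptx2 (adjusted p = 0.00502) was called under all 28. Nptxr, its membrane receptor, was at -0.13 ± 0.08 in females and -0.25 ± 0.08 in males, and its any strain effect (adjusted p = 0.0447) was kept in 7 of 28 alternatives, with adjusted p up to 0.226 in the others. Myo5a, a myosin that moves cargo into spines, was at 0.29 ± 0.07 in females (adjusted p = 0.00852) and 0.06 ± 0.07 in males, and its any strain effect (adjusted p = 0.0159) was lost with the offset for length and GC content (adjusted p = 0.354) and without library 2, 9 or 10 (adjusted p of 0.0519, 0.0564 and 0.0532). The scaffold Dlg4 was at 0.01 ± 0.05 in males and within its standard error of 0 in females, and Grip1, Pick1 and Nsf were not called.

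Among 6 kainate receptor partners, Neto2 and C1ql2 were called, both upregulated in High Activity mice. Neto2, the paralogue of Neto1, was at 64.5 ± 4.65 against 50.3 ± 3.15 CPM in females (log2 0.36 ± 0.06, adjusted p = 0.0003) and 64.1 ± 4.24 against 53.2 ± 2.51 CPM in males (log2 0.27 ± 0.06, adjusted p = 0.00629). C1ql2, a secreted mossy fibre protein that recruits kainate receptors and 1 of the 6 dentate markers, differed by 0.99 ± 0.10 in females (adjusted p = 1.2e-07) and 1.03 ± 0.10 in males (adjusted p = 6.62e-08). Of those 6 markers 5 were called for any strain effect, in both directions, against 19.8% of protein-coding genes at 1 CPM or more. Among the 3 editing enzymes, Adarb1, the enzyme that edits the Q/R site, was at 204 ± 36.2, 256 ± 67.6, 216 ± 4.55 and 266 ± 49.8 CPM in High females, High males, Low females and Low males and was not called (adjusted p = 0.868). Adar was upregulated in High Activity mice at 0.42 ± 0.05 in females (adjusted p = 3.98e-07) and 0.31 ± 0.05 in males (adjusted p = 5.09e-05). Adarb2, a brain homologue without known editing activity, was lower at -0.33 ± 0.10 (adjusted p = 0.03) and -0.48 ± 0.09 (adjusted p = 0.00143). The female call of Adarb2 was lost without library 3, 4, 9, 10 or 11 (adjusted p of 0.108, 0.14, 0.118, 0.0552 and 0.0796).

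The related delta and NMDA receptor genes gave 1 call each for any strain effect. For the mean of the sexes 3 of 3 delta genes and 2 of 7 NMDA genes were called, all higher in High Activity mice. That test called 21.1% of protein-coding genes at 1 CPM or more. Grid1 differed by 0.17 ± 0.05 in females (adjusted p = 0.0502) and 0.22 ± 0.05 in males (adjusted p = 0.00703), and Grin2b, an NMDA receptor subunit, by 1.26 ± 0.14 (adjusted p = 3.59e-07) and 0.83 ± 0.14 (adjusted p = 0.000199). The male call of Grid1 was lost without males 6 and 8 (adjusted p = 0.0596), without males 6, 8, 14 and 16 (0.0691) and without the males with Xist (0.0764).

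**Figure D5:**
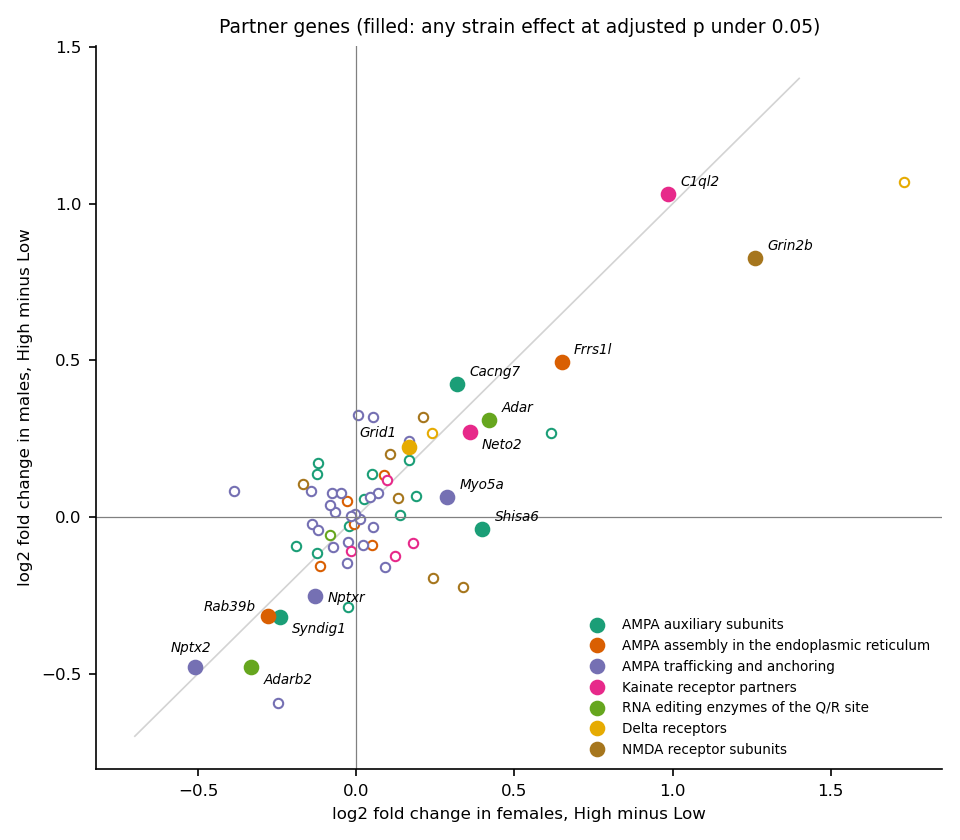
Log2 fold change, High minus Low Activity, in females (x axis) and males (y axis) of the 67 genes of 7 lists (colours). Filled and named points had any strain effect at an adjusted p under 0.05 in edgeR, and the grey diagonal marks equal change. Of the named points Grin2b (1.26, 0.83) and C1ql2 (0.99, 1.03) lie furthest out, followed by Frrs1l (0.65, 0.49), with Cacng7 (0.32, 0.42) and Neto2 (0.36, 0.27) also high in both sexes, and Nptx2 (-0.51, -0.48) and Rab39b (-0.28, -0.32) low in both.

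The genes around each member were counted to show its chromosomal surroundings. Within 2 Mb of Gria1, 17 of 36 protein-coding genes at 1 CPM or more had any strain effect (47.2%), and near Gria2 9 of 16 (56.2%), against 19.8% over all such genes. The counts were 15 of 50 near Grik3, 12 of 42 near Grik4, 4 of 44 near Grik5, 2 of 8 near Gria4, 1 of 10 near Grik1, 1 of 5 near Gria3, 0 of 6 near Neto1 and 0 of 1 near Grik2. Grik2, the member with the smallest p, thus had no called gene within that window, in which 1 gene was tested. Near Gria1 the smallest p belonged to Mrpl55, a mitochondrial ribosomal protein gene 1872 kb away (log2 0.60 ± 0.09 in females and 1.01 ± 0.09 in males), and near Gria2 to Fam198b at 735 kb (1.14 ± 0.15 and 1.08 ± 0.16) and Npy2r, a neuropeptide Y receptor gene, at 1736 kb (-0.59 ± 0.10 and -0.67 ± 0.10). Near Grik3 they were Ago3 at 618 kb (1.09 ± 0.09 and 0.57 ± 0.09) and near Grik4 Sc5d, a gene of cholesterol synthesis, at 254 kb (-0.50 ± 0.05 and -0.59 ± 0.05).

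Across the 16 libraries genes were ranked by the size of their correlation of log2 CPM with a member, in either sign. The first for Grik2 were Chd9 (Pearson r 0.945), Spsb3 (-0.918) and Rpl6 (-0.917). For Gria1 they were Stard10 (-0.934), Sytl1 (-0.931) and Fxyd7 (-0.925), and for Gria2 Sipa1l1 (0.968), Tcf4 (0.964) and Sptb (0.943). These correlations are descriptions over libraries that share depth, strain and tissue make-up. After the 4 group means were removed, r was 0.825 for Chd9 with Grik2, -0.959 for Stard10 with Gria1 and 0.981 for Sipa1l1 with Gria2.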

How the data were processed

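Libraries were made from the RNA samples of highest quality. Alignment of the trimmed paired-end reads was to mm10 with HISAT2. The authors obtained the expected counts from RSEM, removed genes at 0 in every library and deposited them as whole numbers for 31960 genes. They tested genes with DESeq2 1.30.1. From the deposited expected counts, CPM with TMM factors and log2 CPM with a prior count of 1 came from edgeR 4.0.16 (R 4.3.3). Genes were joined to GENCODE M21, in which 61 identifiers were missing. All 16 libraries were fitted with strain, sex and their interaction, without a filter, by legacy quasi-likelihood F-tests. P-values were adjusted over all genes by Benjamini-Hochberg and called under 0.05. Any strain effect tests both within-sex strain differences at once. The fit was tested on simulated data. The members and lists were chosen with earlier results of these data known. The text names all 10 members and the partner genes called for any strain effect (at most 6 per list). It also names at most 2 called neighbours per member. For each of 3 members it names the 3 genes with the largest correlation in either sign. Other partners named as not called were chosen after their values were seen. Alternatives covered other scalings, filterByExpr, limma-voom 3.58.1, DESeq2 1.42.0, an offset for length and GC content, each sex alone and fits without libraries. Libraries are separate mice. Depth limits precision through counts of 193 or more per member and library, beside a biological coefficient of variation of 10.6%.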

Additional observations from a re-analysis of the deposited data

Results flagged for a closer look

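In 4 of the 40 groups of 4 mice (10 genes in 4 groups) a single library stood apart from the other 3 by most of the range of its group, where chance gives about 1 in 20. Gria1 was at 850 CPM in Low male 13, and Neto1 at 161 CPM in the same mouse, both above the other Low males. Gria2 was at 719 CPM in Low female 9, above the other females of that strain. Grik1 was at 8.3 CPM in High male 5, below the other High males. Male 13 also carried Xist at 11 CPM and male 5 at 7.91 CPM, but male 6, with Xist at 5.96 CPM, was not flagged. Low female 9 had the highest level of the Y-linked gene Ddx3y among females, at 0.855 CPM. Whether such RNA had a part in the flagged values was not tested.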

How the results depend on the processing

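The number of members called for any strain effect was 2, and it fell to 1 (Grik2) with upper-quartile factors, filterByExpr, the length and GC offset and limma-voom, and to between 1 and 2 without single libraries. In females it was 1 (Gria1), and it was 0 with upper-quartile factors, filterByExpr and limma-voom, and between 0 and 1 without single libraries. With the length and GC offset it was 1, but the gene was Grik2 in place of Gria1. In males it was 1 (Grik2), and it was 2 (Gria1 and Grik2) without males 6 and 8 and without males 6, 8, 14 and 16. For the mean of the sexes it was 2, between 1 and 2 without single libraries, and 3 with the offset, which added Gria2. No member was called for the interaction under any of the 28 alternatives, although the genes called at 1 CPM or more rose from 0 to 149 with DESeq2, 93 without High male 5 and 194 without High male 7. Those called in males fell from 1548 to 955 without males 6, 8, 14 and 16 and to 967 without the males with Xist. The fits without the 4 males and without the 3 males with Xist were added after seeing the data. No member changed direction in a called difference. The cause of the changes with the offset was not tested. No paired analysis was possible because the libraries are separate mice and the labels give no pairing between groups. Standard errors of the members' strain differences within a sex ran from 0.06 (Grik5) to 0.12 (Grik1) on the log2 scale, which limits what 4 mice per group could show.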
